A study of Mus musculus with 3 samples.

Results

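C3 is 1 of 13 clusters into which the study divided donor CD4+ T cells, a group of cycling effector cells low in Cd226. Its members were taken from the deposited table of CD4+ cells as the cells of cluster 3 that do not carry the TEa transgenic receptor mark. They numbered 1040 of 10091 unmarked CD4+ cells, of 10371 CD4+ cells in all and of 21204 cells in the series, and 39 marked cells of the cluster were left out. B6D2F1 recipients were irradiated and given B6 bone marrow with B6 T cells and TEa T cells, whose receptor recognises a recipient alloantigen. Every day from day 0 to day 6 they received saline or cyclosporine (CSA), at a lower dose of 5 mg/kg or a higher dose of 50 mg/kg, and spleens were taken on day 7. All 3 groups share the irradiation, the transplant and the TEa cells, so the saline group is a model of untreated graft-versus-host disease (GVHD) and holds no syngeneic control. Each group had 6 mice in 3 hashtagged pools of 2 mice, and the pool is the replicate throughout. Mouse ages are not given in the sources used here.

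CSA binds cyclophilin and blocks calcineurin, the phosphatase that lets NFAT transcription factors enter the nucleus after the T cell receptor (TCR) is engaged. Donor CD4+ T cells that meet recipient alloantigen leave G1, copy their DNA in S phase, divide and acquire effector programmes, and chronic TCR signals also switch on inhibitory receptors and the factor Tox. Cells in S phase carry RNA for the replication machinery, such as Pclaf (the PCNA-associated factor) and Rrm2 (a ribonucleotide reductase subunit), and for the histones that package new DNA.

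The C3 cells of a pool numbered 37 to 73 in the saline group, 88 to 127 at the lower dose and 161 to 196 at the higher, and held between 241569 and 2158047 UMIs (unique molecular identifiers, each 1 captured RNA molecule) per pool. Counts were summed over the C3 cells of a pool, so the saline values rest on the fewest molecules. The median C3 cell held 6594.5 UMIs in the saline group, 9634 at the lower dose and 10570 at the higher, above the median of 3034, 4118.5 and 5384 in the other CD4+ cells. All pools of a treatment were captured together, so a capture and its treatment cannot be told apart. A change in the summed RNA of C3 can come from cells that alter their expression or from a different mix of cells assigned to the cluster, and these cannot be told apart either. A second hashtag of at least 0.5 times the strongest was present in 75 C3 cells, 7.21% against 3.75% of the other CD4+ cells, with 0 in pool 1 of each group and 18.4% in pool 3 at 50 mg/kg. No cell barcode occurred in C3 of more than 1 capture, while 32 C3 barcodes also occurred in some cell of another capture.

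Every CD4+ cell of the table held Cd4 and none held Cd8a, and the reverse was true of every CD8+ cell, so the levels of these 2 genes were fixed by the selection of cells and do not check the lineage. Levels are given as CPM, counts scaled to the same library total. Cd8b1, the other CD8 chain, was found at 66.8, 88.9 and 88.0 CPM in the saline C3 pools and at 16.0, 13.2 and 14.1 CPM in the 50 mg/kg pools. These C3 values were further scaled by the bulk of genes (TMM). In naive-like C9, the cluster with the highest Ccr7 and Lef1, Cd8b1 stood at 253 ± 52.4 CPM in saline and 27.4 ± 13.6 CPM at the higher dose, by library size alone. The CD8+ cells were loaded with the CD4+ cells, and 3231 CD4+ cells held Cd8b1 UMIs. The part of such RNA in the results was not tested, and C9 values are given for some of the genes described.

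C3 made up 3.26%, 4.94% and 4.85% of CD4+ cells in the saline pools, 10.1%, 11.1% and 10.9% at the lower dose and 18.6%, 15.9% and 18.4% at the higher. The exact (Clopper-Pearson) 95% intervals, which cover counting error only, were 2.31% to 4.47% in the pool with the lowest share and 16.2% to 21.2% in the pool with the highest. The ranges of the 3 groups did not overlap, and the means were 4.35% ± 0.943 (SD, n = 3), 10.7% ± 0.579 and 17.7% ± 1.49. Among the clusters with the most cycling RNA, C3, C5 and C6, the C3 cells were 20.0% ± 3.16, 46.3% ± 2.23 and 53.3% ± 1.37. These shares are a description, since genes that differ between doses may also have set the cluster borders.

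The label of C3 was checked against markers. Pclaf averaged 869 ± 97.2 CPM over the 9 pools, the highest mean of the 13 clusters, and Stmn1 (stathmin) and Tyms (thymidylate synthase) were also highest in C3. Mki67, which encodes Ki-67 and accumulates towards mitosis, averaged 595 ± 151 CPM and ranked 3rd, after 3318 CPM in C6 and 801 CPM in C5. Cd226, an activating receptor that shares its ligands with the inhibitory receptor TIGIT, averaged 54.7 ± 23.2 CPM and ranked 10th. In the saline pools Cd226 stood at 71.6 ± 3.59 CPM in C3, close to 75.3 ± 8.77 CPM in the non-cycling cluster C1 and below 182 ± 21.5 CPM in C5. The T helper 1 factor Tbx21 ranked 3rd at 133 ± 16.3 CPM and Gzmb 5th at 1002.5 ± 447 CPM, whereas Cd44 ranked 12th at 86.8 ± 15.2 CPM. Gzma ranked 2nd at 325 ± 288 CPM, but its C3 pools ranged from 55.4 to 984 CPM. Naive-like C9 averaged 242 ± 197 CPM of Gzma, so its rank says little about the label. Foxp3 (2.29 CPM) and Bcl6 (2.23 CPM) mark regulatory and follicular cells and were low.

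Compared with the summed other CD4+ cells of the same pools, C3 stood out by RNA of S phase, a trait shared with cycling C6. The 50 S phase genes summed to 10057 ± 389 CPM in C6 in saline, above 8723 ± 408 CPM in C3. At 5 mg/kg the sums were 7200 ± 327 CPM in C6 and 8406 ± 436 CPM in C3. At 50 mg/kg they were 8679 ± 1122 and 9105 ± 368 CPM, with 7 to 14 C6 cells per pool. Because the clusters were made from these counts, these comparisons are a description with no test. Of 3023 genes with at least 50 CPM in C3, 755 (25.0%) were higher in C3 than in the summed other cells in all 9 pools. The 15 with the largest ratios were the histone gene Hist1h2ap, the replication genes Rrm2, Tk1, Pclaf, Gins2, Clspn, Rfc3 and Cdc45, the S phase transcription factor E2f1 with Tcf19 and Mxd3, and Rad51ap1, Esco2, Cenps and Pbk, of which Rad51ap1 acts in DNA repair, Esco2 in sister chromatid cohesion and Cenps at the centromere. Of 3277 genes with at least 50 CPM in the other cells, 825 (25.2%) were lower in C3 in all 9 pools. The 10 lowest ratios belonged to genes of resting or stem-like T cells, Tcf7, Il7r, Ccr7 and Btg1, and to Slfn5, Nsg2, Aff3, Izumo1r, Tbc1d4 and Selenop. Tcf7, the factor of precursor T cells, was at 20.7, 96.8 and 113 CPM in the C3 cells of the saline pools against 265, 302 and 233 CPM in the other cells.

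The comparison with saline described how the summed RNA of C3 differed between treatments, with the limits on capture and cell mix given above. Both doses were compared with the same 3 saline pools, and p-values measure the spread between pools. At 50 mg/kg against saline, 1400 of 7889 genes tested (17.7%) passed an adjusted p of 0.05, 701 higher (8.89%) and 699 lower (8.86%), with a median log2 fold change of -0.01 over all genes. When pools were scaled by their total UMIs alone, 332 genes were higher and 1141 lower and the median was -0.16, so the balance of rises and falls depended on the scaling. Without saline pool 2 the lower genes numbered 440. Without the 75 cells with a strong second hashtag, 629 genes were higher and 635 lower. A lack of overlap between the pools of the groups compared was common. It held for 2642 genes (33.5%) at 50 mg/kg against saline, 1754 (22.2%) at 5 mg/kg against saline and 2133 (27.0%) between the doses. Counts of a list at 50 mg/kg are to be read against 8.89% higher and 8.86% lower over all genes tested. At 5 mg/kg these shares were 3.92% and 2.09%. Values below are CPM after TMM scaling (a scaling by the bulk of genes), given per pool or as mean ± SD over 3 pools, and log2 fold changes are given ± SE. Values in C9 are CPM by library size alone.

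**Figure D1:**
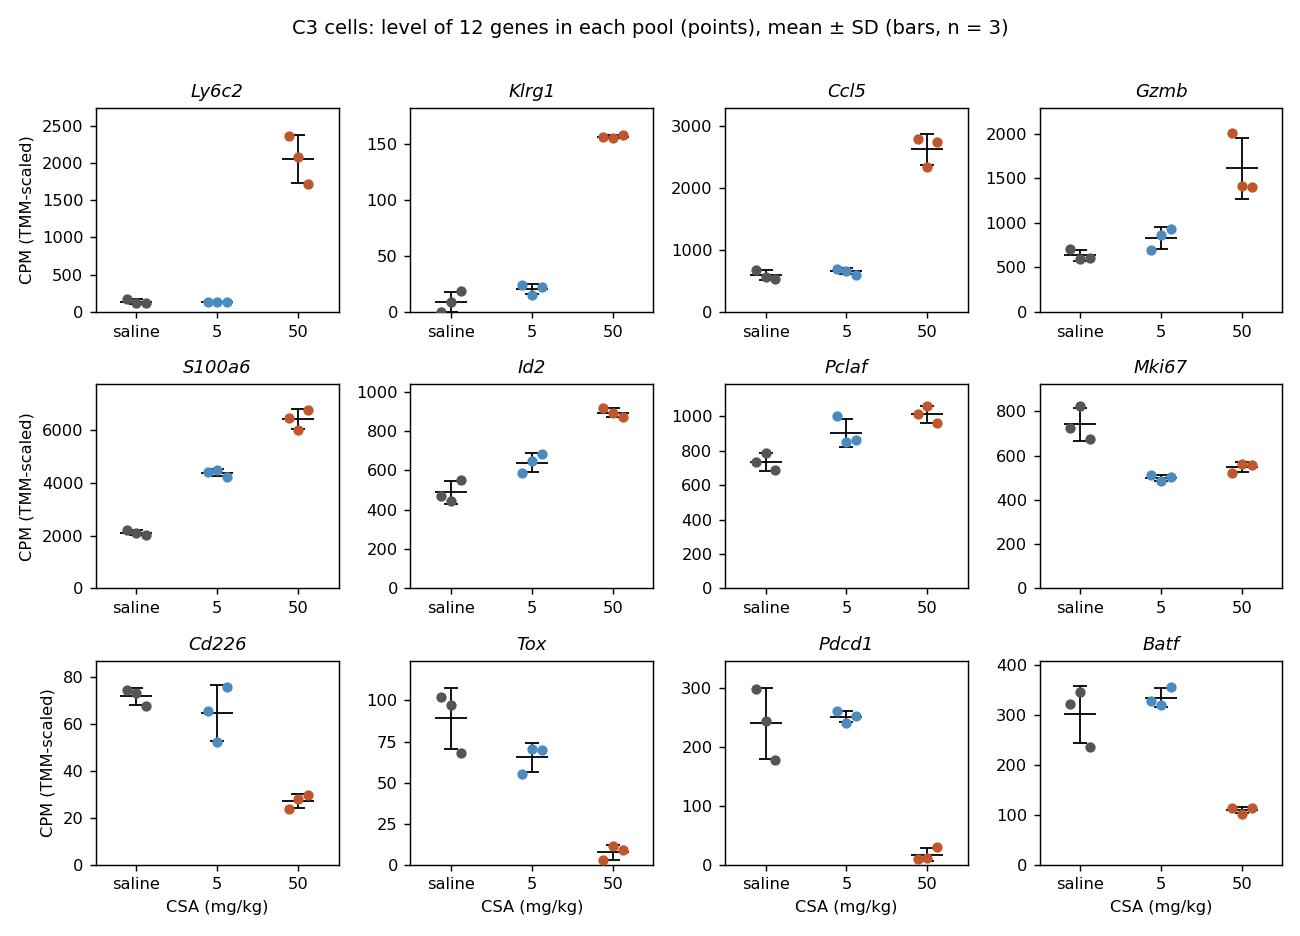
Level of 12 genes in the C3 cells of each pool, as CPM after TMM scaling, against the dose of CSA (saline, 5 or 50 mg/kg). Points are pools, long bars the mean and short bars ± 1 SD of 3 pools. Ly6c2, Klrg1 and Ccl5 stood apart at 50 mg/kg alone, S100a6 and Id2 rose at both doses, and Pdcd1, Tox, Batf and Cd226 were low at 50 mg/kg alone.

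Several surface receptors of effector and memory cells rose at 50 mg/kg. Ly6c2, which encodes the Ly6C antigen of activated and memory T cells, stood at 177, 114 and 126 CPM in the saline pools, 131, 139 and 132 CPM at the lower dose and 2364, 2074 and 1719.7 CPM at the higher. The 50 mg/kg pools lay far above both other groups, which overlapped (log2 fold change 3.96 ± 0.12 against saline, adjusted p = 4.9e-18, and 0.03 ± 0.17 at 5 mg/kg, adjusted p = 0.96). Reads that match its close copy Ly6c1 could have been lost or split in counting, so the level is less sure than the change. Klrg1, an inhibitory receptor of terminal effector cells, was at 0, 8.54 and 18.3 CPM in the saline pools and at 156, 155 and 158 CPM at the higher dose, a rise of 3.84 ± 0.26 (adjusted p = 6.1e-11). The saline pools varied and all 50 mg/kg pools were close to each other. Klrc1, which encodes the inhibitory receptor NKG2A, rose by 1.97 ± 0.18, while the interleukin 18 receptor chain Il18r1 fell by 2.80 ± 0.22, from 139 ± 42.7 to 19.2 ± 4.90 CPM. Ly6a and Ly6e, further members of the Ly6 family, rose by 0.48 ± 0.06 and 0.42 ± 0.06. Of 14 tested members of the effector and memory surface list, 7 rose and 3 fell, with a median of 0.45.

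The listed inhibitory receptors with Tox fell, unlike the inhibitory receptors Klrg1 and Klrc1 above. Pdcd1, which encodes PD-1, was at 298, 244 and 178 CPM in the saline pools, 262, 241 and 253 CPM at the lower dose and 10.7, 10.8 and 29.6 CPM at the higher. The 5 mg/kg pools lay within the saline range and the 50 mg/kg pools far below it (fell by 3.70 ± 0.23 on the log2 scale, adjusted p = 1.3e-11). Tox, the transcription factor that sets up exhaustion, fell from 102, 97.4 and 67.8 CPM to 2.66, 11.4 and 9.22 CPM, a log2 fold change of -3.48 ± 0.29 (adjusted p = 1.9e-09). Tigit fell by 2.07 ± 0.17 and Lag3, a receptor for MHC class II, by 1.84 ± 0.26. In all, 9 of 14 tested members of the list of inhibitory receptors and Tox fell and 0 rose, with a median of -1.995, and at 5 mg/kg 1 fell and 0 rose with a median of 0.09. Tigit was also at 88.4 ± 27.1 CPM in naive-like C9 in the saline group, where it was not found at 50 mg/kg, and Tox at 81.2 ± 9.54 and 26.5 ± 3.53 CPM.

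Costimulatory receptors moved in both directions. Cd226 was at 74.6, 73.5 and 67.8 CPM in the saline pools, 65.7, 52.5 and 76.1 CPM at the lower dose and 24.0, 28.3 and 29.6 CPM at the higher. It was therefore lowest in the cells of the higher dose, with no overlap with saline (log2 fold change -1.38 ± 0.20, adjusted p = 1.1e-05), and at 5 mg/kg its difference did not pass (-0.13 ± 0.18, adjusted p = 0.79). In naive-like C9 Cd226 was at 60.2 ± 16.4 CPM in saline and 17.8 ± 15.8 CPM at 50 mg/kg, levels near those of C3. Icos, Tnfrsf4 (OX40) and Tnfrsf9 (4-1BB), which prolong an activated state, fell by 1.03 ± 0.16, 1.19 ± 0.24 and 1.31 ± 0.23. Cd44, an adhesion receptor of antigen-experienced cells, had a log2 fold change of 0.15 ± 0.14 that did not pass (adjusted p = 0.53). Of 18 tested costimulatory genes, 3 rose and 8 fell, with a median of -0.37.

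Among effector molecules, Ccl5 rose from 683, 569 and 526 CPM to 2795, 2340.4 and 2741 CPM at 50 mg/kg. This chemokine of memory and effector cells stood at 696, 666 and 599.5 CPM at 5 mg/kg, within reach of saline, and its log2 fold change at the higher dose was 2.18 ± 0.08 (adjusted p = 2.5e-16). Gzmb, the granule protease granzyme B, was at 707, 595 and 607 CPM, 697, 859.7 and 934 CPM and 2011, 1414 and 1407 CPM in the 3 groups. It rose by 1.36 ± 0.12 at 50 mg/kg (adjusted p = 4.7e-09), whereas its value at 5 mg/kg (0.42 ± 0.12, adjusted p = 0.045) was lost without saline pool 2, saline pool 3, 5 mg/kg pool 2 or 5 mg/kg pool 3. Gzma, the related granzyme A, was at 169, 321 and 929 CPM in the saline pools, of which pool 3 was far above the others, and at 108, 57.8 and 156 CPM at 50 mg/kg (fell by 2.23 ± 0.36, adjusted p = 5.6e-05). In naive-like C9, which should lack it, Gzma was at 394 ± 109 CPM in saline and 8.63 ± 10.4 CPM at the higher dose. Nkg7, a granule membrane protein, and Prf1 (perforin) had log2 fold changes of 0.05 ± 0.08 and -0.35 ± 0.37 that did not pass. In the granule list 2 genes rose and 6 fell of 18, with a median of -0.21.

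Cytokine genes were sparse in C3. Ccl1, a chemokine made after TCR stimulation, had 61 UMIs over the saline pools and 1 over the 50 mg/kg pools, a ratio of their shares of 273 (95% counting interval 47.3 to 10975). At 5 mg/kg it stood at 128, 77.8 and 242 CPM against 7.85, 25.6 and 80.6 CPM in saline, a rise of 1.82 ± 0.39 (adjusted p = 0.0041) that was lost without saline pool 2 and in DESeq2. In C9 it had 7 UMIs in saline and 0 at 50 mg/kg. Il21 had 40 UMIs in saline and 6 at 50 mg/kg, a fall of 4.63 ± 0.61. Ifng and Tnf, the main inflammatory cytokines of T helper 1 cells, had log2 fold changes of 0.09 ± 0.29 and 0.01 ± 0.30, and neither passed (adjusted p = 0.89 and 0.99). Of 11 cytokines and chemokines tested, 1 rose and 4 fell.

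Transcription factors of TCR signalling did not move as a block. Batf, an AP-1 partner of effector differentiation, was at 322, 345 and 236 CPM in saline and 113, 102 and 113 CPM at the higher dose, with no overlap (fell by 1.44 ± 0.12, adjusted p = 2.2e-09). In C9 Batf was at 196 ± 46.6 CPM in saline and 29.4 ± 14.3 CPM at the higher dose. Nr4a1, an early TCR-induced receptor, rose by 1.63 ± 0.43 (adjusted p = 0.0093), a call lost without saline pool 3 and in DESeq2, and Egr2 and Irf4 did not pass. Of 22 factors tested, 3 rose and 6 fell, with a median of -0.32. Feedback genes of the same pathway were as mixed, with 3 risen and 4 fallen of 17. Dusp2, a phosphatase that restrains MAP kinases, rose by 0.85 ± 0.12, Dusp4 rose by 1.59 ± 0.40 (lost without saline pool 2), and Nrgn, a calmodulin-binding protein, fell by 5.36 ± 0.55, while the activation antigen Cd69 had a log2 fold change of 0.08 ± 0.19 that did not pass.

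The factors of effector fate were led by Id2, which favours effector and memory differentiation and stood at 467, 444 and 553 CPM, 588, 648 and 684 CPM and 919, 889.8 and 873 CPM. Each group lay above the one before it, and the log2 fold changes were 0.39 ± 0.08 at the lower dose (adjusted p = 0.0031) and 0.87 ± 0.08 at 50 mg/kg (adjusted p = 8.8e-09). Tbx21 was level at 137 ± 15.1, 131 ± 18.6 and 136 ± 14.1 CPM, with a log2 fold change of 0.03 ± 0.14 at 50 mg/kg (adjusted p = 0.93). Zeb2, a factor of terminal effector cells with low counts here, fell by 2.92 ± 0.56, and Bhlhe40 (-0.34 ± 0.14) and Prdm1 (-0.04 ± 0.40) did not pass. The list held 4 risen and 5 fallen genes of 15, and 3 and 3 in DESeq2.

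Genes of resting and stem-like T cells were split. Klf2, which keeps cells quiescent and in circulation, rose by 0.50 ± 0.11, while Tcf7 fell from 19.6, 90.6 and 106 CPM to 8.52, 12.6 and 16.0 CPM (by 2.71 ± 0.31, adjusted p = 5.0e-07). Il7r, the interleukin 7 receptor of long-lived cells, fell by 1.25 ± 0.21, and Txnip did not pass (0.20 ± 0.16). In this list 6 rose and 4 fell of 23. Cytokine receptors and JAK-STAT genes held 0 risen and 7 fallen of 22, among them Il2ra, the high-affinity interleukin 2 receptor chain (fell by 1.06 ± 0.28, lost without saline pool 3), whereas Il2rb and Il2rg had log2 fold changes of 0.06 ± 0.09 and 0.03 ± 0.07 and did not pass. Of 19 survival and death genes 1 rose and 3 fell, and Bcl2, which protects from apoptosis, fell by 1.15 ± 0.24 (from 54.9 ± 6.44 to 24.4 ± 7.94 CPM), while Bcl2l11 (BIM), which it binds, its relative Mcl1 and the death receptor gene Fas did not pass.

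Genes of the nuclear lamina and of calcium-binding membrane proteins rose broadly, 15 of 23 tested at 50 mg/kg with 0 falling and a median of 0.61. By library size alone the counts were 15 and 1. S100a6, a calcium-binding protein of activated and memory cells, was at 2203, 2100.2 and 2038 CPM, 4404, 4499 and 4223 CPM and 6462, 6001 and 6757 CPM. Each group lay above the one before with no overlap, and the rises were 1.05 ± 0.05 and 1.60 ± 0.05 (adjusted p = 5.6e-14 and 4.5e-18). Lmna, which encodes lamin A and C, had 2 UMIs over the saline pools and 976 over the 50 mg/kg pools, a ratio of their shares of 109 (95% counting interval 30.1 to 900). Anxa1, an annexin with anti-inflammatory roles, rose by 2.77 ± 0.18, S100a4 by 1.80 ± 0.12, Anxa2 by 0.90 ± 0.07 and Lgals1 (galectin 1) by 0.55 ± 0.06. At 5 mg/kg 11 members rose and 1 fell (6 and 1 by library size alone), and the Anxa1 and S100a4 calls there were lost without saline pool 2, among others. In C9, S100a6 was at 1565 ± 277 CPM in saline and 229 ± 112 CPM at the higher dose, and Lgals1 at 2300.0 ± 104 and 516 ± 210.4 CPM.

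Homing genes rose more often than they fell, with 12 and 5 of 23 at 50 mg/kg and a median of 0.30, but 7 and 6 by library size alone. Cxcr3, the receptor for inflammatory chemokines, rose by 0.48 ± 0.09. The integrin chain Itgb1 fell by 0.76 ± 0.11 and Itga4, its partner in VLA-4, by 0.88 ± 0.10, while S1pr1, which guides exit from lymphoid organs, did not pass (-0.07 ± 0.17). Other genes chosen by size of change were Ctla2a, a protease inhibitor, which rose by 3.08 ± 0.25, the mitochondrial protein gene Chchd10, which rose by 2.62 ± 0.20, and the serpin Serpina3g, which fell by 2.39 ± 0.21.

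**Figure D2:**
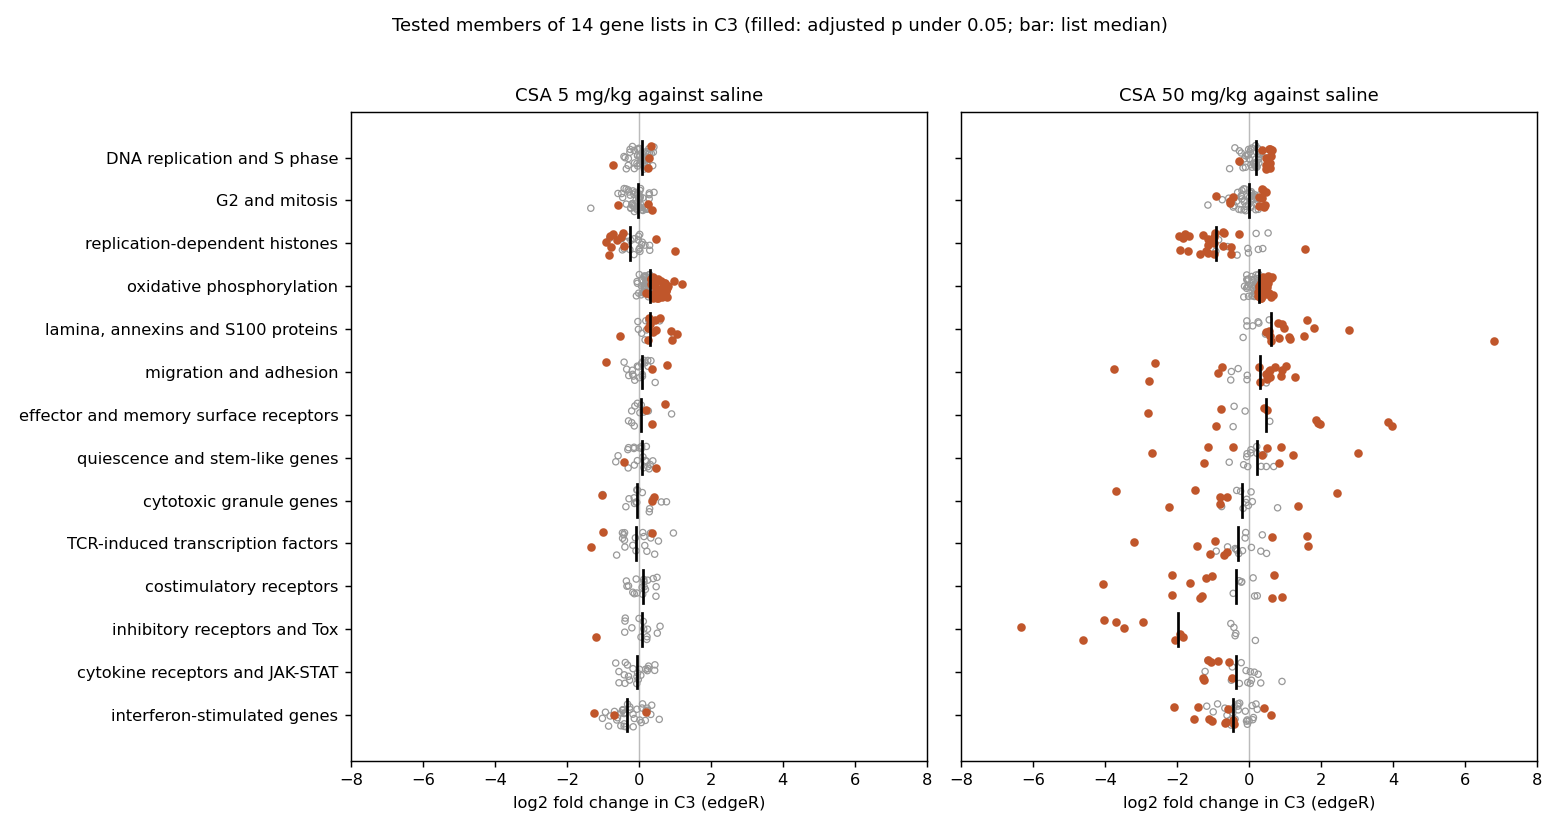
Log2 fold change in C3 of every tested member of 14 gene lists at 5 mg/kg (left) and 50 mg/kg (right) against saline. Each point is a gene, filled where its adjusted p was under 0.05, and the black bar is the list median. At 50 mg/kg the inhibitory receptors and Tox centre on -1.995 and the histone genes on -0.93, while oxidative phosphorylation genes sit near 0.32 and 0.27 at the lower and higher dose.

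The interferon-induced membrane proteins, which restrict viral entry, fell sharply. Ifitm1 was at 428, 328 and 304 CPM in the saline pools, 419, 408 and 653 CPM at the lower dose and 2.13, 8.42 and 33.5 CPM at the higher, and Ifitm3 at 224, 150.4 and 266 CPM, 336, 232 and 482 CPM and 7.46, 6.02 and 12.1 CPM. Both were lowest in every 50 mg/kg pool, with log2 fold changes of -4.46 ± 0.33 and -4.57 ± 0.33 (adjusted p = 4.0e-10 and 1.6e-10), and Ifitm2 fell by 2.97 ± 0.48. The 3 genes are close copies, so counting could split their reads. In C9 Ifitm1 was at 194 ± 30.0 CPM in saline and was not found at 50 mg/kg, and Ifitm3 was at 85.5 ± 16.2 and 23.9 ± 36.4 CPM. The wider list of interferon-stimulated genes held 2 risen and 10 fallen of 38 with a median of -0.44, and the fallen genes numbered 4 in DESeq2 and 15 by library size alone. Isg15, Ifit1 and Ifit3 had low counts and did not pass (log2 fold changes of -0.11 ± 0.32, -0.88 ± 0.62 and -1.18 ± 0.56).

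Cells were assigned to C3 by their RNA, with cycling genes among its markers, so the summed cell-cycle RNA of C3 is a description and its likeness across doses may follow from the assignment. Values and calls of single cell-cycle and histone genes in C3, here and in the next paragraphs, carry the same limit. The 50 S phase genes summed to 8723 ± 408 CPM in saline, 8406 ± 436 CPM at the lower dose and 9105 ± 368 CPM at the higher, and the 53 genes of G2 and mitosis to 12747 ± 342 CPM, 12029.9 ± 669 CPM and 12425 ± 359 CPM (sums before TMM scaling). The groups overlapped in both sums. Pclaf was at 734, 788 and 685 CPM in the saline pools, 999, 853 and 862 CPM at the lower dose and 1011, 1059 and 960.3 CPM at the higher, a rise of 0.45 ± 0.07. Rrm2 rose by 0.60 ± 0.07 and Pcna, the sliding clamp of replication, by 0.57 ± 0.12, while the helicase subunit Mcm5 did not pass (0.20 ± 0.10). Mki67 was higher in all saline pools, at 727, 822 and 674 CPM, than at 5 mg/kg (514, 487 and 501 CPM) and 50 mg/kg (521, 561 and 559 CPM), a fall of 0.44 ± 0.07 at 50 mg/kg. Mki67 thus fell while the sums overlapped. At the higher dose 10 S phase genes rose and 1 fell, and 8 genes of G2 and mitosis rose and 4 fell, but by library size alone these were 7 and 2, and 1 and 8. Top2a and Ccnb1 did not pass (0.13 ± 0.08 and -0.23 ± 0.15), and Cdk1 rose by 0.35 ± 0.10, a call lost without saline pool 1, saline pool 2 or 50 mg/kg pool 1.

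Entry into the cycle is set by D cyclins and restrained by CDK inhibitors. Ccnd2 rose by 0.50 ± 0.14 (lost without saline pool 2) and Ccnd3 by 0.36 ± 0.09 (lost without saline pool 2), and both were lost by library size alone. The inhibitor Cdkn1b (p27) fell by 0.76 ± 0.17, from 86.6 ± 6.01 to 51.8 ± 3.81 CPM, and Cdkn1a (p21) rose by 0.91 ± 0.29, a call lost without saline pools 1 or 3 and 50 mg/kg pools 1 or 2. Of 16 tested genes of this list 5 rose and 3 fell, and 0 and 3 by library size alone.

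Most histone genes of S phase fell at 50 mg/kg. Their RNA summed to 7916 ± 1094 CPM in the saline C3 pools, 6113 ± 409 CPM at the lower dose and 4334 ± 152 CPM at the higher, with no overlap between groups. Of 33 tested, 22 fell and 1 rose at 50 mg/kg with a median of -0.93, and 9 fell and 2 rose at 5 mg/kg. Hist1h1b, a linker histone, was at 1803, 2203 and 1543 CPM in saline and 1086, 1201 and 1059.8 CPM at the higher dose (fell by 0.74 ± 0.09, adjusted p = 1.2e-06), and Hist1h4d fell by 1.15 ± 0.07. Hist1h2ap was the exception, with 114, 85.4 and 88.0 CPM in saline and 253, 273 and 274 CPM at the higher dose (rose by 1.53 ± 0.13). Hist1h2ae rose at 5 mg/kg (0.49 ± 0.09) and its fall at 50 mg/kg (-0.27 ± 0.10) was lost when any 1 of the saline pools was left out. Histone messages are mostly not polyadenylated and lie in families of near-identical copies, so both capture and counting could split or lose them.

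The same histone list was also high in other clusters in the saline group. It summed to 8503 ± 395 CPM in naive-like C9 and 5232 ± 200.5 CPM in C1, against 7916 ± 1094 CPM in C3. At 50 mg/kg it was 491 ± 115 CPM in C9, 473 ± 20.8 CPM in C1, 621 ± 72.2 CPM in C5 and 4334 ± 152 CPM in C3. The C3 and C9 sums were thus close in saline and far apart at 50 mg/kg. S phase RNA of C9 was below that of C3 in both groups, at 2396 ± 202 CPM in saline and 1272 ± 77.3 CPM at the higher dose.

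**Figure D3:**
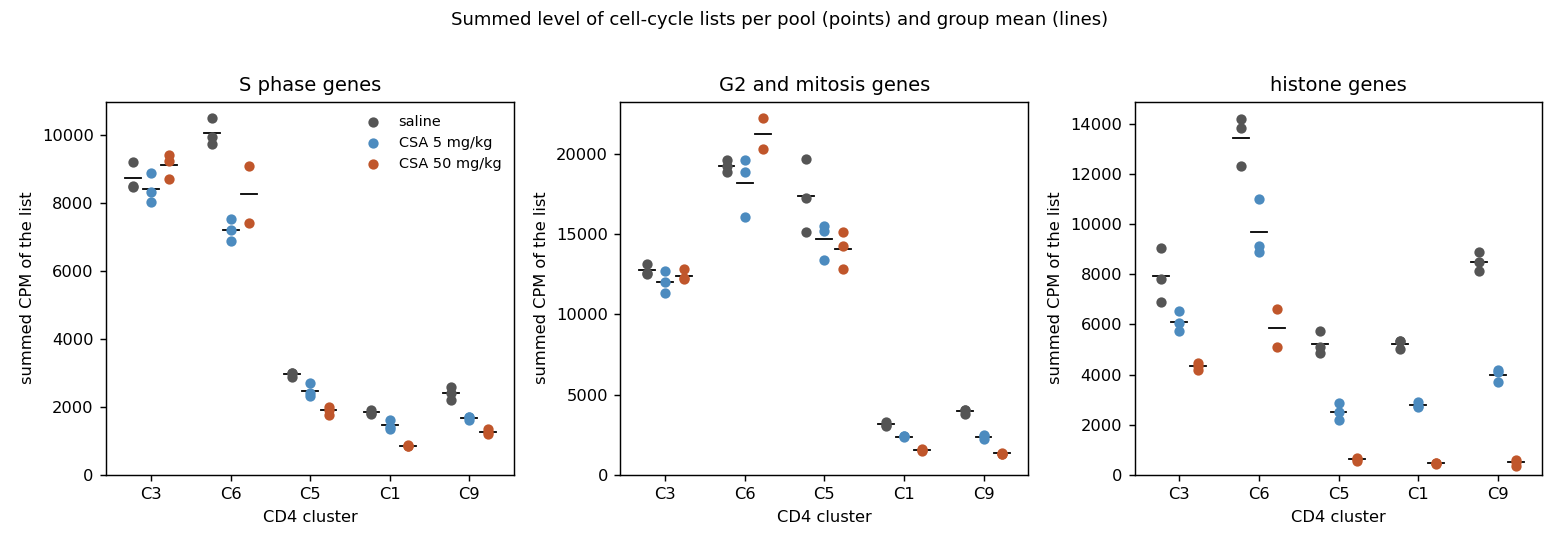
Summed CPM of the S phase, G2 and mitosis and histone lists in C3, C6, C5, C1 and C9 by dose, with points for pools of at least 10 cells and lines for their means. S phase RNA of C3 stayed near 8723, 8406 and 9105 CPM, while the histone sum was lower at 50 mg/kg than in saline in all 5 clusters shown.

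Genes of oxidative phosphorylation, the mitochondrial route to ATP, rose in C3 at both doses. At the higher dose 39 of 77 tested rose and 0 fell with a median of 0.27, and at 5 mg/kg 38 rose and 0 fell with a median of 0.32. By library size alone 18 rose and 1 fell at the higher dose, and 24 rose and 0 fell at the lower. Atp5e, a subunit of ATP synthase, was at 829, 699 and 720.2 CPM in saline, 1217, 1274 and 1190.5 CPM at the lower dose and 989, 933 and 915 CPM at the higher. It was highest at the lower dose, with log2 fold changes of 0.73 ± 0.07 and 0.36 ± 0.07 (adjusted p = 1.5e-08 and 2.7e-04). In naive-like C9 Atp5e was also highest at the lower dose, at 620 ± 115, 1022 ± 60.3 and 888 ± 89.8 CPM, though without a test. Another subunit gene, Atp5b, was highest in saline there, at 703 ± 62.5, 587 ± 9.90 and 661 ± 165 CPM. The cytochrome oxidase subunits Cox6c and Cox7c rose by 0.39 ± 0.06 and 0.34 ± 0.08 at 50 mg/kg, and Ndufa4 by 0.26 ± 0.07, the latter 2 lost without saline pool 3 and by library size alone. Cytosolic ribosomal protein genes, a list added after the values were seen, held 54 risen and 1 fallen of 81 at 50 mg/kg and 67 and 0 at 5 mg/kg, but 23 and 11 by library size alone at the higher dose and 38 and 0 at the lower.

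Other metabolic lists had calls in both directions or none, some near the shares over all genes tested (8.89% higher and 8.86% lower). Of 18 glycolysis genes 3 rose and 4 fell (2 and 2 in DESeq2), and Ldha and Pkm, which act at its end, had log2 fold changes of 0.04 ± 0.05 and 0.00 ± 0.06 at 50 mg/kg. The glucose transporter Slc2a1 rose by 0.79 ± 0.24, a call lost without saline pool 1, saline pool 3 or 50 mg/kg pool 3, and Slc2a3 did not pass (-0.50 ± 0.28). Amino acid and one-carbon genes held 2 risen and 2 fallen of 20 (1 and 5 by library size alone), with a rise of 0.66 ± 0.14 for the mitochondrial folate enzyme Mthfd2 and no call for Slc7a5, Slc3a2 or Shmt2. Among 17 sterol genes 0 passed in edgeR or in DESeq2 and 2 had an unadjusted p under 0.05 in edgeR, with Sqle at 0.17 ± 0.36, Hmgcs1 at -0.36 ± 0.25 and Idi1 at 0.27 ± 0.29. Among 22 genes of the endoplasmic reticulum and unfolded protein response 3 rose and 4 fell, led by the chaperone Hspa5 (fell by 0.74 ± 0.11, adjusted p = 2.1e-05), while Xbp1, Ddit3 and Pdia4 did not pass.

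Markers of other cell types were summed in C3. B cell markers summed to 244 to 341 CPM in the saline pools and 284 to 560.2 CPM at 50 mg/kg, with 1 of 5 tested risen and 2 fallen (Ighm rose by 0.64 ± 0.17, lost without 50 mg/kg pool 3, and H2-Aa fell by 2.22 ± 0.64, lost without saline pool 1 or 2). Myeloid markers summed to 285 to 356 CPM and 281 to 363 CPM, with 0 of 6 passing in edgeR or in DESeq2 and 0 at an unadjusted p under 0.05. Erythroid markers were too few to test, at 0 to 12.4 CPM in saline and 25.6 to 45.0 CPM at 50 mg/kg. The single CD8 and NK marker tested, Cd8b1, fell by 2.53 ± 0.19. Regulatory and T helper 17 markers summed to 146 to 186 CPM and 30.6 to 42.6 CPM, with both tested genes fallen (Ikzf2 by 3.19 ± 0.31, Il2ra as above), and Foxp3 near 0. Dissociation-induced genes summed to 393 to 415 CPM and 404 to 449 CPM, with 2 of 6 risen and 1 fallen. Their part in the results was not tested.

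Fewer genes passed at the lower dose. At 5 mg/kg against saline 474 of 7889 genes passed (6.01%), 309 higher (3.92%) and 165 lower (2.09%), and by library size alone 129 higher and 447 lower. Without saline pool 2, saline pool 3 or 5 mg/kg pool 3 the lower genes numbered 72, 95 and 98. Of the 10 largest rises among genes of at least 50 CPM, 6 were ribosomal protein genes, Rpl38, Rps28, Rps29, Rps21, Rpl39 and Rpl37. Rpl38 was at 628, 803 and 751 CPM in saline, 1700.3, 1662 and 1766 CPM at the lower dose and 984, 945 and 1001 CPM at the higher (log2 fold change 1.21 ± 0.07 at 5 mg/kg, adjusted p = 9.1e-13). It stood highest in the 5 mg/kg group in C9 as well, at 2946 ± 96.4 CPM against 1034 ± 299 CPM in saline, though without a test. The other rises were S100a6 and Hist1h2ap, given above, the ATP synthase subunit Atp5k (1.19 ± 0.14) and Ier3ip1, of the endoplasmic reticulum (1.06 ± 0.20).

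The 10 largest falls at 5 mg/kg were led by Macf1, a giant linker of actin and microtubules, at 177, 137 and 205 CPM in saline and 55.4, 72.7 and 68.3 CPM at 5 mg/kg. The groups did not overlap (fell by 1.37 ± 0.16, adjusted p = 8.5e-07). Itga4 was at 589, 473 and 603 CPM and 295, 320.2 and 263 CPM (fell by 0.91 ± 0.11, adjusted p = 1.7e-06). The histone gene Hist1h3c fell by 0.90 ± 0.17. The acetyltransferase Crebbp, the dynein heavy chain Dync1h1, Gm26917, the Csk-binding adaptor Pag1, Gabpb2 and Rasgrp1, which activates Ras after TCR engagement, fell by 0.90 ± 0.20, 0.87 ± 0.19, 0.86 ± 0.17, 0.84 ± 0.19, 0.84 ± 0.21 and 0.82 ± 0.18. Several of these rest on 1 library, since Hist1h3c, Crebbp and Pag1 were lost without saline pool 2, Dync1h1 and Gm26917 without saline pool 3, and Gabpb2 without saline pool 1, saline pool 3, 5 mg/kg pool 1 or 5 mg/kg pool 3.

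Between the doses, 894 genes (11.3%) differed, 398 higher at 50 than at 5 mg/kg (5.04%) and 496 lower (6.29%), and without 5 mg/kg pool 3 the higher genes numbered 246. Several receptor genes and Tox differed between the doses, with log2 fold changes at 50 against 5 mg/kg of 3.93 ± 0.10 for Ly6c2, 2.93 ± 0.17 for Klrg1, -3.83 ± 0.20 for Pdcd1, -3.09 ± 0.25 for Tox and -1.26 ± 0.16 for Cd226 (adjusted p = 2.4e-19, 3.6e-12, 5.4e-13, 1.4e-09 and 2.9e-06). Inhibitory receptors and Tox held 10 genes lower and 0 higher at the higher dose, out of 14. Ifitm3 was higher than saline at 5 mg/kg (0.75 ± 0.20, adjusted p = 0.025, lost without saline pool 2 or 5 mg/kg pool 3) and lower at 50 mg/kg. Oxidative phosphorylation genes were lower at 50 than at 5 mg/kg in 13 of 77 and higher in 1, and ribosomal protein genes lower in 45 of 81 and higher in 2. Serpina3g stood at 142, 133 and 155 CPM at the lower dose and 17.6, 24.7 and 15.5 CPM at the higher.

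Whether C3 changed more or less than other CD4+ cells was tested as an interaction, with the pool as a block. Against all other CD4+ cells, 1954 of 10059 genes (19.4%) changed differently at 50 mg/kg, 830 more positively in C3 (8.25%) and 1124 more negatively (11.2%), but by library size alone 1835 and 548, with the median over all genes moving from 0.01 to 0.28. With C4 and C6, whose shares fell with dose, left out of the other cells, the numbers were 443 and 604. C0 numbered 309, 361 and 371 cells in the saline pools and 155, 122 and 107 at 50 mg/kg. C1 numbered 103, 122 and 140 cells and then 253, 273 and 257. The mix of the remaining cells thus still changed with dose, and its part in the difference of any gene was not tested. Cycling RNA helped to set the clusters, and the share of cycling clusters among the other cells changed with dose, so the values of cell-cycle and histone genes in this and the next comparisons are a description and no test of them. S phase genes were more positive in C3 in 48 of 50 (50 by library size alone and 33 without C4 and C6) and more negative in 0. Rrm2 was at 499.7 ± 15.3 CPM in saline and 801 ± 35.4 CPM at the higher dose in C3, against 156 ± 2.61 and 40.8 ± 4.85 CPM in the other cells, a difference of 2.61 ± 0.10. Histone genes were more positive in 37 of 43 and more negative in 0. Genes of G2 and mitosis were more positive in 34 of 53 and more negative in 4, which became 4 and 5 without C4 and C6.

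Oxidative phosphorylation genes changed more negatively in C3 than in the summed other cells in 69 of 77 and more positively in 0 (51 and 1 by library size alone). Without C4 and C6 these were 53 and 0, and the median difference went from -0.65 to -0.41. Ribosomal protein genes were more negative in 80 of 82, with a median of -0.76 that became -0.48 without C4 and C6. In the list of the lamina, annexins and S100 proteins 13 of 23 genes were more negative and 2 more positive, and 8 and 1 without C4 and C6. Of 14 inhibitory receptors and Tox, Btla was more positive (1.22 ± 0.25) and Cd160 more negative (-1.33 ± 0.28, adjusted p = 3.9e-04 and 6.5e-04), both named after their values were seen. Klrg1, Cd226, Pdcd1 and Tox differed between C3 and the other cells by 0.57 ± 0.42, 0.06 ± 0.23, -0.38 ± 0.19 and -0.23 ± 0.29, none of which passed (adjusted p = 0.4, 0.91, 0.17 and 0.65), which does not show that they moved alike. Ly6c2 and Gzmb changed more positively in C3 than in the summed other cells, by 0.42 ± 0.11 and 0.53 ± 0.09 (adjusted p = 0.006 and 4.1e-05). S100a6 had a difference of -0.37 ± 0.06 (adjusted p = 1.0e-05). The changed mix of the other cells may enter these differences, which was not tested. The Ly6c2 call was lost without saline pool 2 or 3 and without the pool as a block, and the S100a6 call by library size alone and without C4 and C6.

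C1 is the non-cycling cluster with similarly low Cd226. Against C1, 334 of 8142 genes (4.1%) changed differently, 287 more positively in C3 (3.52%) and 47 more negatively (0.577%). The former numbered 185 without saline pool 2 and 189 without saline pool 3, the latter 24 without saline pool 3 and 26 without 50 mg/kg pool 2. Several effector genes differed in their change. Gzmb went from 633 ± 61.2 to 1606 ± 347 CPM in C3 and from 509 ± 57.0 to 390.2 ± 23.5 CPM in C1, a difference of 1.72 ± 0.11 (adjusted p = 1.8e-14). Ccl5 went from 589.8 ± 80.7 to 2617 ± 247 CPM in C3 and from 1382 ± 96.7 to 1747 ± 159.9 CPM in C1, a difference of 1.83 ± 0.11 (adjusted p = 5.0e-15). In naive-like C9, by library size, Gzmb was at 554 ± 66.5 CPM in saline and 67.3 ± 47.1 CPM at 50 mg/kg. Ccl5 there was at 1100.0 ± 15.7 and 621 ± 495 CPM. The part of such RNA in the C1 levels was not tested. Ly6c2 was lower in C3 than in C1 in saline and higher at 50 mg/kg, with a difference of 1.92 ± 0.13 (adjusted p = 4.0e-14), from 139 ± 32.8 to 2047 ± 325 CPM in C3 and from 371 ± 34.9 to 1483 ± 159 CPM in C1. Cd226 (-0.72 ± 0.26) and Klrg1 (1.55 ± 0.49) did not pass (adjusted p = 0.12 and 0.07). S phase genes were more positive in C3 in 28 of 50, genes of G2 and mitosis in 37 of 51 and histone genes in 30 of 35, each with 0 more negative, and 3 of 77 oxidative phosphorylation genes were more positive with 0 more negative.

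C5 is a cycling cluster with more mitotic RNA. Against C5, 1025 of 7610 genes (13.5%) changed differently, 385 more positively in C3 (5.06%) and 640 more negatively (8.41%), and 983 and 344 by library size alone. The former numbered 173 without saline pool 2, 181 without saline pool 3, 226 without 50 mg/kg pool 2 and 234 without 50 mg/kg pool 3. Mki67 stood at 763 ± 77.4 and 563 ± 23.3 CPM in C3 and at 1216 ± 148 and 355 ± 39.3 CPM in C5, a difference of 1.36 ± 0.12. Mki67 was thus the lower in C3 in saline and the higher in C3 at 50 mg/kg. S phase genes were more positive in C3 in 9 of 50 (27 by library size alone) and histone genes in 24 of 31, with 0 more negative in both, and 64 of 77 oxidative phosphorylation genes were more negative with 0 more positive. Gzmb (0.38 ± 0.13), Ccl5 (0.10 ± 0.15), Cd226 (0.44 ± 0.25) and Pdcd1 (0.27 ± 0.30) did not differ enough to pass.

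Naive-like C9 should make little effector or cell-cycle RNA. It held 110 cells in saline and 94 at 50 mg/kg, with 252012 and 348307 UMIs. At 50 mg/kg Gzmb was at 67.3 ± 47.1 CPM in C9 against 554 ± 66.5 CPM in saline, and Ly6c2 at 183 ± 193 against 129 ± 25.3 CPM. Gzmb was thus lower in C9 at 50 mg/kg, where it had risen in C3. Pdcd1 in C9 was at 24.4 ± 10.9 CPM in saline, far below C3. Hist1h1b was at 1579 ± 72.9 CPM in C9 in saline, near its level in C3, and at 107 ± 27.4 CPM at 50 mg/kg, and Ccl5 was higher in C9 than in C3 in saline (1100.0 ± 15.7 CPM). Genes that fell in C3 and were also lower in C9 at 50 mg/kg than in saline included Gzma, the histones, Tox, Tigit, Cd226, Batf, Ccl1 and Ifitm1. The part of such RNA in these and other falls in C3 was not tested.

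**Figure D4:**
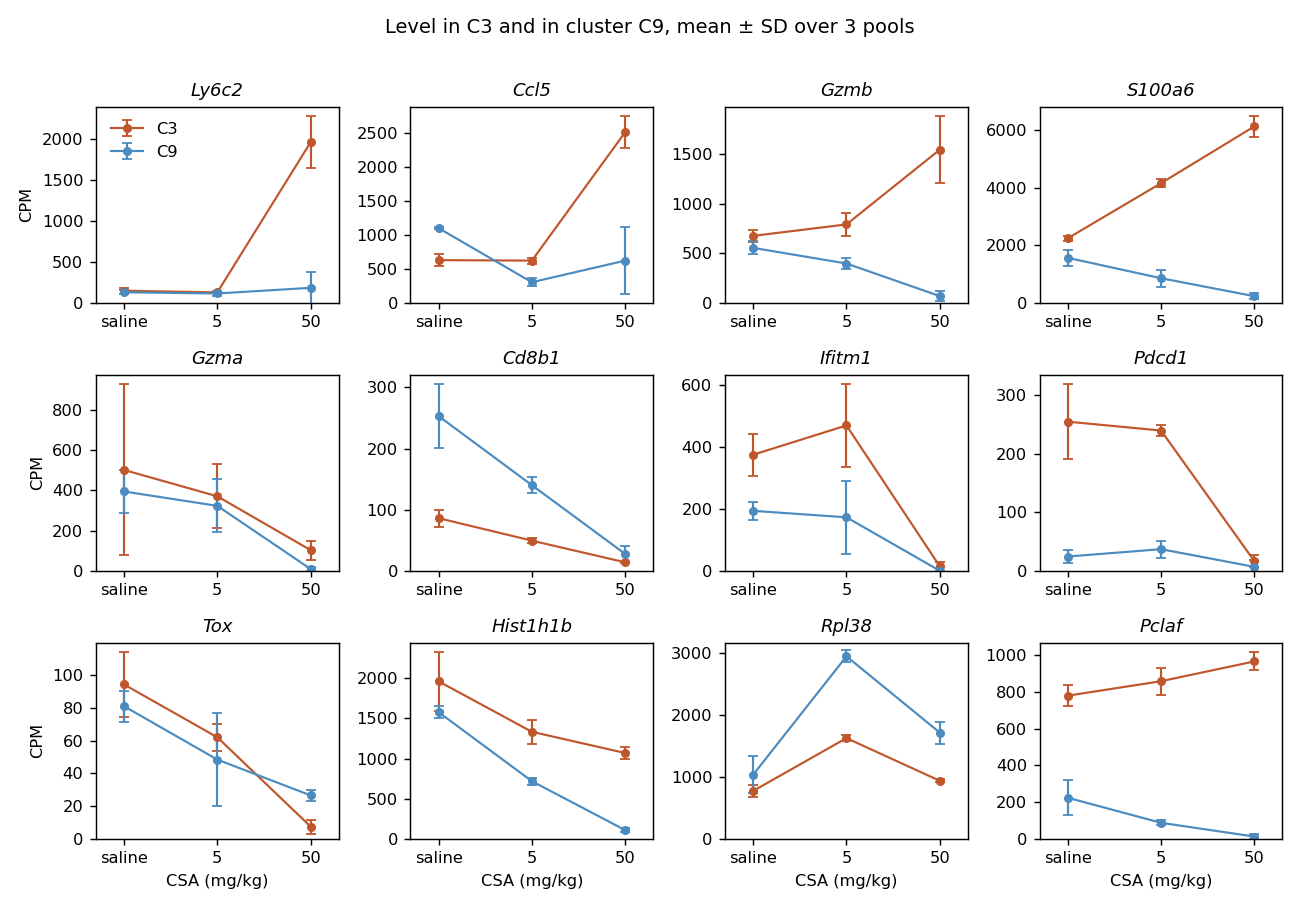
Mean ± SD over 3 pools of 12 genes in C3 and in naive-like C9 by dose of CSA (mg/kg), as CPM by library size. At 50 mg/kg Gzmb and S100a6 were above saline in C3 and below it in C9, Gzma, Tox and Hist1h1b were below saline in both, and Rpl38 was highest at 5 mg/kg in both.

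T cells that descend from 1 cell carry the same TCR. A clonotype is here the deposited entry of alpha and beta chain CDR3 amino acid sequences of a cell. Entries with a missing chain or with more than 1 chain of a kind were not left out. A match alone does not show descent, since 3.64% ± 3.31 (SD, n = 9) of C3 cells with a clonotype had it in another pool of the dose. Whether RNA of TCR segments entered the clustering is not given in the sources used here. In C3, 952 cells carried a clonotype, of 864 different clonotypes. The CDR3 is the part of the receptor that meets the antigen. Clonotypes with 1 alpha and 1 beta chain and the most C3 cells in a pool of each group were picked after the data were seen, matched by nucleotide sequence, to show how 1 clone spread over clusters. Their beta chain CDR3 sequences, as deposited, 5′ to 3′, were
Saline pool 2: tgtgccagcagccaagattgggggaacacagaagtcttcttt
CSA 5 mg/kg pool 2: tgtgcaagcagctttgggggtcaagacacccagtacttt
CSA 50 mg/kg pool 2: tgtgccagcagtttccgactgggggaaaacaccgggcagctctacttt

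The saline clone, of gene segments TRBV5 and TRBJ1-1 and 42 bases in the beta CDR3, had 3 cells in C3 out of 13, with 4 in C6, 2 each in C5 and C0 and 1 each in C2 and C8, and 1 more cell in another pool. The 5 mg/kg clone (TRBV16, TRBJ2-5, 39 bases) had 4 cells in C3 of 12, with 7 in C0 and 1 in C5. In the 50 mg/kg clone (TRBV15, TRBJ2-2, 48 bases) 5 of 9 cells were in C3, 3 in C1 and 1 in C5. Each clone shown thus had cells in C5 and in C0 or C1, while its cells in C3 follow from how it was picked. The next clones by the same rule differed in this. Those of 5 mg/kg pool 3 (2 of 6 cells in C3) and 50 mg/kg pool 1 (3 of 6) had 0 cells in C5. That of saline pool 1 had 6 of 26 cells in C5.

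Over all clones, the chance that a C3 cell and another CD4+ cell of its pool shared a clonotype averaged 10.997 per 10000 pairs, against 0.478 per 10000 for cells of the other pools of the dose. It was higher within the pool in 9 of 9 pools (exact two-sided sign-flip test, p = 0.00391, the smallest it can give). Of C3 cells with a clonotype, 29.6% ± 9.43 (SD, n = 9) had it in another CD4+ cell of their pool. Sharing was lower with C1 (7.50 per 10000) than with C5 (21.5 per 10000) in 8 of 9 pools, a difference of -14.0 (exact p = 0.00781, adjusted over 7 comparisons 0.0547). Saline pool 1, with 83.1 per 10000 shared with C5, carries much of that difference, which was -7.26 without it. The differences from C0 (-10.1, exact adjusted p = 0.109) and from C6 (-14.8 in 7 pools with enough cells, exact adjusted p = 0.410) did not pass, and were -6.61 and -5.34 without saline pool 1. With C9, 0 pairs were shared in every pool.

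**Figure D5:**
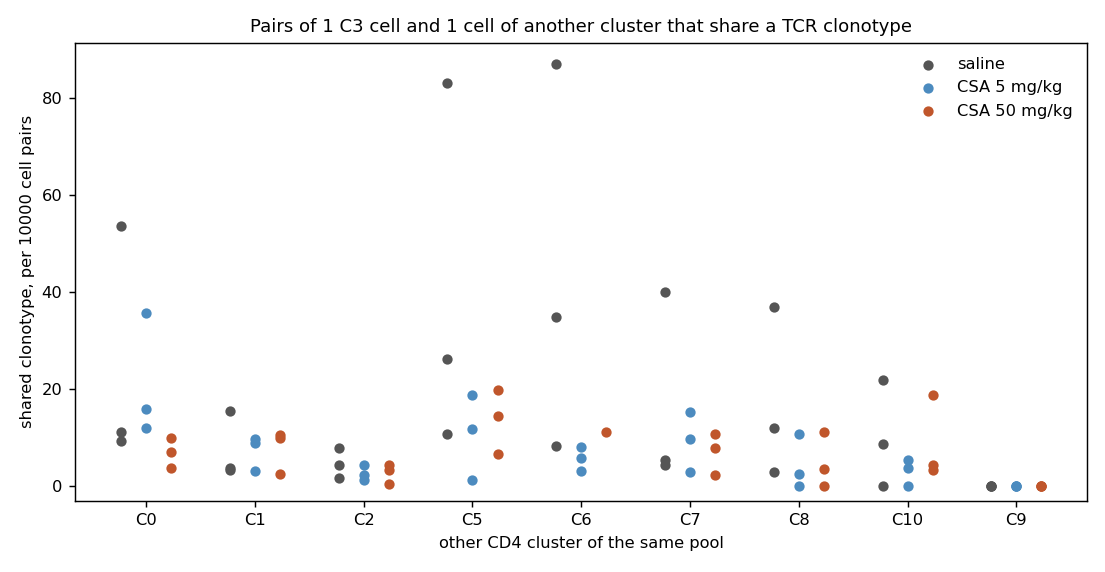
Pairs of 1 C3 cell and 1 cell of another cluster of the same pool that share a clonotype, per 10000 pairs, by cluster and dose, with 1 point per pool. Saline pool 1 lies highest for C5 and C6 (83.1 and 87.1), and all 9 pools are at 0 for C9.

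No trend of sharing over the doses passed (exact Jonckheere-Terpstra tests, adjusted p = 0.410 for C0, 1 for C1, 0.606 for C5 and 0.48 for C6). Clonality within C3, the unbiased Simpson index, was 31.4 ± 27.4 per 10000 pairs in saline, 17.6 ± 7.27 at the lower dose and 16.7 ± 8.12 at the higher, with a saline range of 0 to 50.4. The spread between saline pools exceeded the difference between groups (exact trend test, p = 0.519). With the TEa cells included the exact trend test gave p = 0.0417. TEa cells all carry the same transgenic receptor, so their number in a pool enters that index. It therefore does not measure the expansion of the other clones. The study's own scores per cell, averaged over C3, moved little. The stem-like score was -0.163 ± 0.0275, -0.175 ± 0.0145 and -0.197 ± 0.0040 and the exhaustion score 0.103 ± 0.0014, 0.103 ± 0.0014 and 0.104 ± 0.00026 by rising dose. Neither passed (exact trend tests, p = 0.0417 and adjusted p = 0.0625 for both), nor did the glycolysis score, at 0.0818 ± 0.0039, 0.0907 ± 0.0037 and 0.0888 ± 0.0055 (exact, adjusted p = 0.123).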

How the data were processed

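Spleen donor CD4+ and CD8+ T cells were profiled with 10x 5′ libraries and TCR libraries, 1 capture per treatment. Per the labels, Cell Ranger, Seurat 3.0.0 and build mm10 were used. The authors deposited raw UMI counts per gene and cell, and a table of cells with pool, cluster (from integrated data), clonotype, the fraction of mitochondrial UMIs and a score for each of 3 gene programmes. The gene lists behind the scores are not given in the sources used here, and cells with 2 hashtags were kept as deposited; no doublet caller was run.

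C3 counts were summed per pool. Genes passing filterByExpr were scaled by TMM and tested with the quasi-likelihood test of edgeR 4.0.16 (R 4.3.3, limma 3.58.1), with 9 pools in 1 fit, Benjamini-Hochberg adjustment and a threshold of 0.05. Interactions with the other CD4+ cells, C1 or C5 had the pool as a block. The fits were tested on simulated data. Clonotypes were compared as deposited amino acid CDR3 entries, complete or not, in clusters of at least 10 cells per pool. Exact sign-flip and Jonckheere-Terpstra tests were computed by listing all assignments (the smallest trend p is 0.00119). The exact intervals of the C3 shares came from scipy 1.17.1. Figures were drawn with matplotlib 3.10.9. Alternatives were DESeq2 1.42.0, library size scaling, no filter, only the groups compared, cells of at least 2000 UMIs, TEa cells included, cells with a clonotype and leaving out each pool.

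Genes were named by rule: the 10 largest rises and falls at each dose among called genes of at least 50 CPM whose pools did not overlap, the first 4 tested genes of each list, the 5 largest interactions each way, the 15 highest and 10 lowest ratios to the other cells, and 11 genes of the study. A few genes that this rule names are not reported here. The members and lists were chosen with earlier results of these data known.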

Additional observations from a re-analysis of the deposited data

Results flagged for a closer look

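The change from saline to 50 mg/kg differed between C3 and other cells, by a test of the difference itself in edgeR, for 1954 genes against all other CD4+ cells, 334 against C1 and 1025 against C5. Values below are log2 differences of the change, C3 minus the other cells, for the 5 genes at each end of each comparison. The 3 comparisons share the C3 pools. Cycling RNA helped to set the clusters, so the values of cell-cycle and histone genes are a description. The mix of clusters within all other CD4+ cells also changed with dose.

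Against all other CD4+ cells the most positive were E2f8 (3.48), a repressor of the E2F family, Esco2 (3.43) and the histone genes Hist1h1a (3.29), Hist1h2ak (3.24) and Hist1h1b (3.14). The most negative were Ifitm3 (-2.20), Ifitm1 (-2.03), Ifitm2 (-1.63), Ifi27l2a (-1.32) and Klk8 (-1.31). The Ifitm2 call was lost without saline pool 3 and when C4 and C6 were left out of the other cells.

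Against C1 the most positive were Cdc45 (4.68 ± 0.94 SE), Rad51ap1 (4.37 ± 0.82), Esco2 (4.31 ± 0.76), Shcbp1 (4.11 ± 0.76) and Mxd3 (4.02 ± 0.55). These rest on low counts in C1, where Cdc45 went from 8.90 ± 5.06 to 0.24 ± 0.42 CPM and Mxd3 from 16.3 ± 2.18 to 1.49 ± 0.73 CPM. In C3 Cdc45 was at 67.4 ± 22.1 and 74.2 ± 3.41 CPM, so the sizes of these differences are unsure. The most negative were Cd74 (-2.01), the invariant chain, Il18r1 (-1.21), Map4k1 (-1.10), Anapc2 (-1.09) and Ifitm1 (-1.08). The Il18r1 call was lost without saline pool 3, the Ifitm1 call without saline pool 3 or 50 mg/kg pools 1 or 2, and the Anapc2 call without any of 7 pools.

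Against C5 the most positive were E2f8 (3.22), Hist1h1a (3.08), Hist1h1b (2.43), Hist2h2bb (2.39) and Hist1h2ak (2.25). E2f8 had low counts in C5, at 13.3 ± 1.76 CPM in saline and 1.39 ± 1.68 CPM at 50 mg/kg (SE of the difference 0.64). The most negative were Malsu1 (-1.55), Ifitm3 (-1.53), Ifi27l2a (-1.36), Anapc13 (-1.27) and Gm10076 (-1.27). The Ifitm3 call was lost without saline pool 3 or 50 mg/kg pool 1, and the Gm10076 call without saline pools 2 or 3 or 50 mg/kg pool 3.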

How the results depend on the processing

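By library size alone 332 genes were higher and 1141 lower at the higher dose, 129 and 447 at the lower, 1835 and 548 in the comparison with all other CD4+ cells, and 983 and 344 in that with C5. DESeq2 gave 420 lower at the higher dose against saline, 66 lower at the lower dose, and between the doses 187 higher and 314 lower. Without the filter 488 genes were higher at 5 mg/kg, and in cells with a clonotype 97 were lower. Without C4 and C6 the comparison with the other cells gave 443 and 604. As a share of C3, C5 and C6, C3 differed by 33.4 percentage points between saline and 50 mg/kg. The clonality trend had an exact p of 0.0417 with TEa cells, whose shared transgenic receptor enters the index. Leaving out 1 pool gave 440 to 704 lower genes at the higher dose, 72 to 155 at the lower dose, 246 to 425 higher between the doses, 185 to 283 higher and 24 to 55 lower against C1, and 173 to 365 higher against C5. No named gene changed sign where it passed in either fit, but by library size alone the S phase median at 5 mg/kg went from 0.10 to -0.07 and the median over all genes of the comparison with the other cells from 0.01 to 0.28. Of 91 named genes called at 50 mg/kg, 67 passed under every alternative run, and 20 of 43 at 5 mg/kg. Pool numbers paired no samples (correlations of same-numbered pools between -0.025 and 0.038); with the number as a replicate block 671 genes were higher and 664 lower at the higher dose, 308 and 160 at the lower dose and 395 and 477 between doses, and without the pool as a block the interactions gave 848 and 1133, 268 and 33, and 381 and 634. The saline pools had the fewest cells, which limits genes of low counts.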
